A study of Mus musculus with 7 samples.

Results

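Mitochondria carry their own ribosome, which makes the few proteins encoded by mitochondrial DNA, all of them subunits of the respiratory chain and of ATP synthase. Its ribosomal RNAs come from the mitochondrial genome, whereas its proteins are encoded in the nucleus, made in the cytosol and imported. Some of these proteins descend from bacterial ribosomal proteins, and others were added in the mitochondrial lineage. The genes of these proteins, whose symbols start with Mrpl (large subunit) or Mrps (small subunit), were chosen by symbol alone from the count table of a mouse muscle series, without the pseudogenes. The rule found 78 genes among 49568 gene symbols. By the known placing of the proteins, 51 belong to the large subunit (including Mrps30 and Mrps18a, whose symbols say otherwise), 26 to the small subunit, and Mrps36 is counted apart because it is also known as a subunit of the oxoglutarate dehydrogenase complex.

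The study asked how the transcriptome of skeletal muscle changes as juvenile mice mature. Gastrocnemius, a hindlimb muscle of mostly fast fibers, was taken from C57BL/6J males: from 2 mice aged 4 weeks, 2 aged 6 weeks and 3 aged 8 weeks, with a library for each mouse. The labels name no treatment or transgene, but the 8-week titles carry the mark Ctl, which the 4- and 6-week titles do not. The study's text uses Ctl for littermates without Cre that served as controls in its ablation of satellite cells. The labels do not say whether the 8-week mice come from that cohort, so age and a difference of cohort cannot be told apart. Libraries were made from total RNA after depletion of ribosomal RNA. Marker genes of muscle fibers were present at 153307 to 241517 summed CPM (counts per 1e6 counts of a library, scaled by TMM factors), so the defining markers of the labelled tissue were there. In whole muscle, fewer cells of a type and less RNA per cell cannot be told apart.

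Each library held 30836057 to 41784144 counts, of which the members took 0.0850% to 0.120%. Between 25.1% and 37.4% of a library was mt-Rnr2, the RNA of the large subunit, which the depletion had left. Among the 8-week mice, replicate 2 stood apart from replicates 1 and 3. Its mt-Rnr2 share was 25.1%, against 36.1% in replicate 1 and 37.4% in replicate 3, and the median of 7 slow fiber genes lay 0.17 above the mean of the 7 libraries on the log2 scale, against 0.69 and 0.60 below it in replicates 1 and 3. The count of calls and the median of the members, and of the 2 lists set beside them, are therefore also given without it.

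A total of 77 of the 78 members passed the filter on low counts, among 14976 genes tested. Mrpl53 had 0 counts in every library. In the GENCODE annotation of GRCm38, 695 of its 790 exon bases (88.0%) are also exon of Gm42688, a readthrough gene on the same strand, and reads that fall on exons of more than 1 gene are not counted by default in the counting program used. Gm42688 itself had 6 to 11 counts per library. The value of 0 is thus no measure of Mrpl53 mRNA. Other same-strand stretches shared with another gene lie in Mrps34 (763 bases, with Nme3), Mrps6 (464 bases, with Slc5a3 and Gm49711), Mrpl33 (261 bases), Mrps18c (250 bases), Mrpl3 (248 bases), Mrps24 (226 bases) and Mrpl51 (87 bases), and reads in them are dropped by the same default. The 5 pseudogenes of the family in the table had 0 to 4 counts per library.

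The members are scattered over 17 chromosomes, with most on chromosome 11 (11 genes) and chromosome 17 (8 genes). Of the 78, 23 (29.5%) start head to head with another protein-coding gene within 1000 bases, or overlapping it by up to 200 bases, against 11.4% of the 12661 protein-coding genes tested. Their longest transcripts are short, with a median of 1866.5 bases, against 3518 bases for the protein-coding genes tested. The median GC content is alike, 49.76% in the members and 49.7% in those genes.

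Promoters were read because genes of mitochondrial proteins are known for binding sites of ETS factors (GABPA, also called NRF2), NRF1 and YY1 near their start sites. RefSeq promoters (GRCm38.p6; 250 bases before and 50 after the start) were matched by symbol for 69 of 78 members. The ETS core CCGGAAG occurred, on either strand, in 26 members (37.7%), against 9.93% of all 27025 genes with a promoter and 18.9% of the 10273 other tested genes. The NRF1 motif GCGCANGCG occurred in 16 members (23.2%), against 7.03% of all genes and 14.7% of the other tested ones. The YY1 motif AAGATGGCG occurred in 8 members (11.6%), against 1.64% of all genes and 3.36% of the other tested ones. In total 42 members (60.9%) held at least 1 of the 3 motifs, against 16.5% of all genes and 32.3% of the other tested ones. The share was 57.4% in the ribosomal proteins of the cytosol (ETS alone 41%) and 54.7% in the nuclear genes of the respiratory chain (NRF1 alone 31.2%). Of the YY1 matches, 6 of 8 began at or after the start site, whereas 19 of 31 ETS matches and 16 of 25 NRF1 matches began within the 100 bases before it. NRF1 matches on both strands of the same palindrome count separately. A match is a string of letters and was not tested as a binding site.

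Shown are the 150 bases before the RefSeq start, 5′ to 3′ on the strand of the gene, of 6 members. Their levels differed between 8 and 4 weeks. They were chosen after the values were seen, to show promoters with NRF1 or ETS matches and without. The annotations differ in the start. By GENCODE, the stretches of Mrpl46 and Mrpl39 lie wholly inside the gene, and those of Mrpl9, Mrpl27 and Mrpl17 reach into it. The bases before the GENCODE start of Mrpl46 and Mrpl39 were not read. None of the called members held the YY1 motif, which only 8 of 69 members held. Capitals mark motif matches. Mrpl9 and Mrpl39 hold the NRF1 palindrome, Mrpl27 the ETS core, Mrpl17 NRF1 matches (its ETS match lies further upstream), and Mrpl46 and Mrpl55 none of the 3.
Mrpl9 (chr3:94443186-94443335, plus strand): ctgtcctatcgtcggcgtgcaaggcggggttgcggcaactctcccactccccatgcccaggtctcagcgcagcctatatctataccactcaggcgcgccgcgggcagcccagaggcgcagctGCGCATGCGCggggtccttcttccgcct
Mrpl39 (chr16:84735245-84735394, minus strand): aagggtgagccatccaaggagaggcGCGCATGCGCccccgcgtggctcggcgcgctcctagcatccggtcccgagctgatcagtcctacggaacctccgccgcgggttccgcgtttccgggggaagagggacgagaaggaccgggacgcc
Mrpl27 (chr11:94653641-94653790, plus strand): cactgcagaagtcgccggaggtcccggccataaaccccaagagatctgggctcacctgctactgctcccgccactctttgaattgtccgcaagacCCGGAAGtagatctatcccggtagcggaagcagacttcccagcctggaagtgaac
Mrpl17 (chr7:105811088-105811237, minus strand): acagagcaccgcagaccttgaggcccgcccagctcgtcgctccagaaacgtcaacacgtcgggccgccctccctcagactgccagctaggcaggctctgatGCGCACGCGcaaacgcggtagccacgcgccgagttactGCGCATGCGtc
Mrpl46 (chr7:78783090-78783239, minus strand): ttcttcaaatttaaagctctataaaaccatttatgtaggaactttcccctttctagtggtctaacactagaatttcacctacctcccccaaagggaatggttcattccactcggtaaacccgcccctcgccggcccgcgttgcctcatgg
Mrpl55 (chr11:59202336-59202485, plus strand): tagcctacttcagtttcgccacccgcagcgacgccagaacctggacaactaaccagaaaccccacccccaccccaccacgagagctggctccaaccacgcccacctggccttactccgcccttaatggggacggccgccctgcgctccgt

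Levels were compared between members as TPM (counts per base of the union of all annotated exons, scaled to the same sum in each library), as a description of abundance per length. The mean over the 7 libraries was highest for Mrps21 (60.6 ± 13.2 TPM), Mrps28 (50.2 ± 11.5), Mrpl18 (47.3 ± 8.91), Mrpl54 (46.1 ± 9.61) and Mrpl2 (45.5 ± 8.89; SD, n = 7). Compared within each library, Mrps21 lay above the others of these in every one, whereas the order of the others changed between libraries. Mrps21 and Mrps28 are proteins of the small subunit, Mrpl18 binds near the central protuberance of the large subunit, and Mrpl2 lies near its catalytic centre. After Mrpl53, the lowest were Mrpl23 (1.21 ± 0.264 TPM), Mrps35 (2.498 ± 0.455), Mrps10 (2.52 ± 0.493) and Mrps6 (3.15 ± 0.711). With this length Mrpl23, which in bacteria sits by the exit of the peptide tunnel, was below every other member with counts, ranging from 0.909 to 1.70 TPM. The order of Mrps35 and Mrps10 changed between libraries. In Mrps6, 30.3% of the exon bases are shared with other genes. Reads there are not counted although its length includes them, so its level may be understated. The median member had 10.8 TPM, and the 90th percentile was 6.48 times the 10th. The sum behind these TPM includes mitochondrially encoded RNA such as mt-Rnr2, so their size and spread depend on how much of it each library held. Scaled over protein-coding genes without mitochondrially encoded ones, the median member had 37.3 TPM and Mrps21 208.5 TPM. The order then had a Spearman correlation of 1 with the first, and the percentiles a ratio of 6.49.

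The order of the members was nearly the same in each muscle, with Spearman correlations between 0.976 and 0.992 over 78 genes in the 21 pairs of libraries. The ranks depend on the length used. With the principal transcript in place of all exons, Mrpl42 had 209 TPM against 42.8 TPM and Mrpl33 had 69.4 TPM against 5.13 TPM. The lowest end changed too, as Mrpl23 then had 7.54 TPM (rank 65 of 78) and Mrps10 17.7 TPM (rank 37), and the lowest member with counts was Mrps26 with 3.48 TPM. The correlation of the 2 orders was 0.778, although the spread between the percentiles remained at 6.74 times. Among the 3 copies of bacterial S18, Mrps18c had 11.6 ± 2.26 TPM, Mrps18a 9.87 ± 1.58 TPM and Mrps18b 7.94 ± 1.30 TPM. Mrps18b was the lowest of the 3 in every library, whereas the order of Mrps18c and Mrps18a changed between libraries. With the principal transcript, Mrps18a was at 36.4 TPM, Mrps18c at 17.2 TPM and Mrps18b at 13.6 TPM, so the order among the copies depended on the length used.

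**Figure D1:**
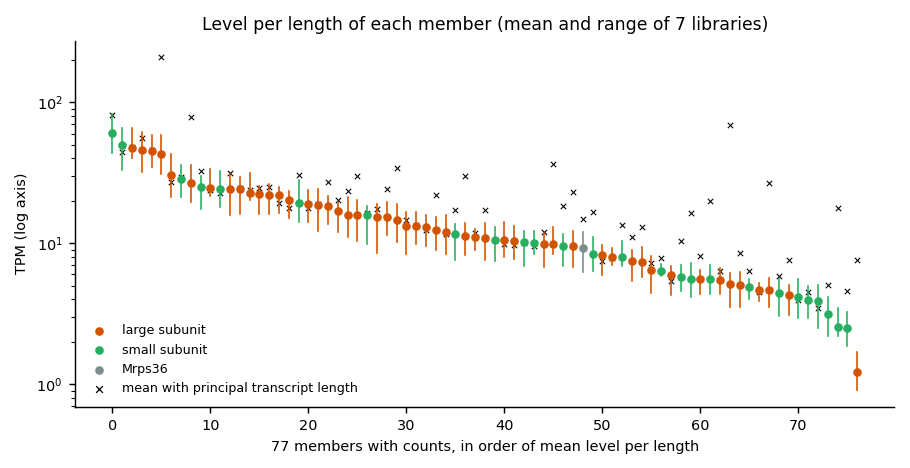
Level per length of the 77 members with counts. Points are the mean TPM of 7 libraries (log axis) in falling order, lines the range of the libraries, orange the large subunit and green the small subunit, and crosses the mean with the length of the principal transcript. Mrps21 leads with 60.6 TPM and Mrpl23 ends the order with 1.21 TPM by the length of all exons, and crosses far above a point mark genes whose principal transcript is much shorter than all their exons together, such as Mrpl42 and Mrpl33.

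The summed level of the members was 1101 and 1099 CPM at 4 weeks, 1072 and 1108 CPM at 6 weeks, and 1017, 1123 and 996 CPM at 8 weeks. On this scale 8-week replicates 1 and 3 lay below all other libraries, and 8-week replicate 2 above all. Per 1e6 counts outside the mitochondrial genome, without TMM factors, the members had 2073 and 1944 at 4 weeks, and 1860 and 1911 at 6 weeks. At 8 weeks they had 1603, 1715 and 1594 on that scale, so replicate 2 then lay below every 4- and 6-week library too. The large subunit made up 2.69 to 2.88 times the CPM of the small one, with means of 2.72 ± 0.0405 in the 4-week mice (SD, n = 2), 2.82 ± 0.0857 in the 6-week mice (SD, n = 2) and 2.75 ± 0.0278 in the 8-week mice (SD, n = 3). Both 6-week mice (2.88 and 2.76) lay above both 4-week mice (2.75 and 2.69). The 8-week mice (2.74, 2.72 and 2.77) overlapped both ages. The balance between the subunits was not tested. Expressed per member, the median log2 CPM relative to the mean of all libraries was 0.05 and 0.06 at 4 weeks, 0.01 and 0.06 at 6 weeks, and −0.08, 0.05 and −0.12 at 8 weeks.

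**Figure D2:**
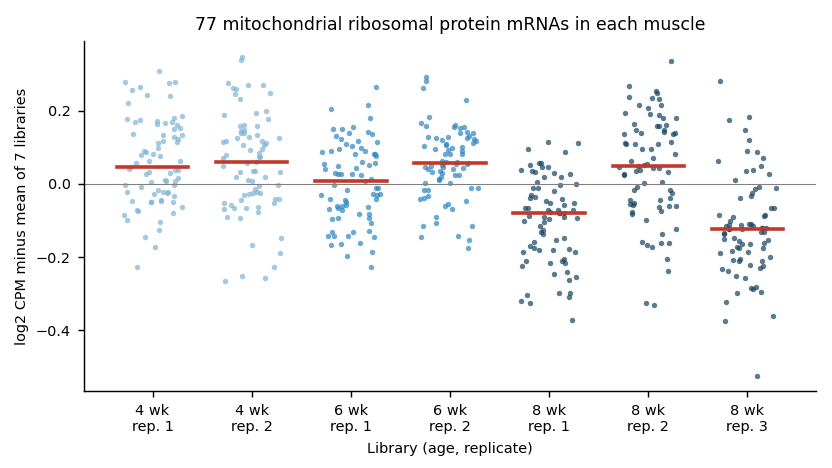
Level of the 77 tested members in each library. Each point is 1 gene, as log2 CPM minus its mean over the 7 libraries, and red bars are the medians. The medians of 8-week replicates 1 and 3 lie at −0.08 and −0.12, whereas 8-week replicate 2 lies at 0.05, with the 4- and 6-week libraries between 0.01 and 0.06.

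The change over the first interval was addressed by comparing 6 with 4 weeks. Of 77 members, 0 passed (edgeR quasi-likelihood, Benjamini-Hochberg adjusted p under 0.05), against 7.14% of all genes. DESeq2, limma-voom and robust edgeR also called 0, and 3 members had an unadjusted p under 0.05 by edgeR. All 77 had a log2 fold change within ± 0.5, as did 78.5% of all genes, and their median was −0.03 against −0.01 over all genes. The smallest p belonged to Mrpl9, a large subunit protein with a bacterial homolog. It had 16.4 and 19.5 CPM at 6 weeks, against 22.0 and 23.1 CPM at 4 weeks (log2 fold change −0.33 ± 0.12 SE, adjusted p = 0.115). Mrpl14, which in bacteria forms part of the interface between the subunits, had 11.3 and 11.6 CPM at 6 weeks, against 8.60 and 9.55 CPM at 4 weeks (0.34 ± 0.14, adjusted p = 0.166). Mrps17, a small subunit protein that binds ribosomal RNA, had 10.5 and 10.1 CPM at 6 weeks, against 12.2 and 13.0 CPM at 4 weeks (−0.30 ± 0.12, adjusted p = 0.177). For these 3 genes the differences did not pass the test. The mice of the 2 ages did not overlap in them, but the genes were picked by p, so this adds no support. The next members by p (Mrps27, Mrpl42, Mrpl39, Mrps23 and Mrpl47) had adjusted p between 0.28 and 0.312.

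The comparison of 8 with 4 weeks spans the whole series. It called 8 of 77 members (10.4%), of which 7 were lower and 1 was higher at 8 weeks. Over all genes it called 18.4%, with 9.5% higher and 8.95% lower. The share of members called was thus below the background. The share called lower, 7 of 77, was near that of all genes, and the share called higher, 1 of 77, was below it. The median log2 fold change was −0.12 in the members and −0.01 over all genes, with 56 members below 0 and 21 above. The changes were small: 75 of 77 members (97.4%) lay within ± 0.5, against 75.1% of all genes, with a median standard error of 0.12 in the members and 0.16 over all genes. The 6- and 8-week comparisons share the 4-week mice, so they are not independent of each other.

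Of the members called lower, 3 are large subunit proteins with bacterial homologs. Mrpl9 (chromosome 3, 94443318 to 94451130, GRCm38) had 15.6, 16.2 and 15.7 CPM at 8 weeks, against 22.0 and 23.1 CPM at 4 weeks. It fell by 0.51 ± 0.11 on the log2 scale (SE, adjusted p = 0.00785), the smallest p among the members. Mrpl27 (chromosome 11, 94653767 to 94660089), whose bacterial homolog reaches toward the peptidyl transferase centre, had 5.64, 6.04 and 4.36 CPM at 8 weeks, against 7.64 and 7.47 CPM at 4 weeks. It fell by 0.50 ± 0.15 (adjusted p = 0.0381), with the lowest value in replicate 3. Mrpl17 (chromosome 7, 105803206 to 105811099), whose bacterial homolog is a ring protein near the tunnel exit, had 15.9, 17.7 and 17.6 CPM at 8 weeks, against 22.7 and 20.5 CPM at 4 weeks. It fell by 0.34 ± 0.10 (adjusted p = 0.0406). In each of the 3 genes the mice of the 2 ages did not overlap, which is no further support for genes picked by the test.

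A further 3 are proteins that the mitochondrial lineage added to the large subunit. Mrpl46 (chromosome 7, 78775236 to 78783531) had 7.25, 7.05 and 6.16 CPM at 8 weeks, against 9.82 and 9.52 CPM at 4 weeks, and fell by 0.50 ± 0.12 (adjusted p = 0.0173). Mrpl41 (chromosome 2, 24974117 to 24975098) had 5.66, 5.91 and 5.68 CPM at 8 weeks, against 8.47 and 7.65 CPM at 4 weeks, and fell by 0.49 ± 0.12 (adjusted p = 0.0186). The 6-week mice, with 7.65 and 8.55 CPM, lay near the 4-week mice and above all 8-week mice. Mrpl39 (chromosome 16, 84717576 to 84735742) had 10.3, 11.1 and 12.003 CPM at 8 weeks, against 14.9 and 16.1 CPM at 4 weeks, and fell by 0.48 ± 0.13 (adjusted p = 0.023). Its 6-week mice had 11.5 CPM, within the 8-week values, and 14.5 CPM, between the ages.

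The small subunit contributed 1 call. Mrps22 (chromosome 9, 98588730 to 98601660), also an addition of the mitochondrial lineage, had 8.28, 7.48 and 8.60 CPM at 8 weeks, against 11.3 and 10.7 CPM at 4 weeks, and fell by 0.44 ± 0.13 (adjusted p = 0.0388). Of the 6-week mice, replicate 1 (8.91 CPM) lay between the ages and replicate 2 (11.5 CPM) above both. The single member called higher was Mrpl55 (chromosome 11, 59202486 to 59206134), a large subunit protein, with 11.7, 12.5 and 12.2 CPM at 8 weeks, against 9.74 and 9.04 CPM at 4 weeks. It rose by 0.37 ± 0.11 (adjusted p = 0.0454), and its sign was positive under every scaling tried, but its call was lost whichever single library was left out. Just outside the threshold, Mrpl33 had 13.4, 15.2 and 13.6 CPM at 8 weeks, against 17.6 and 17.7 CPM at 4 weeks (−0.33 ± 0.11, adjusted p = 0.0508).

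**Figure D3:**
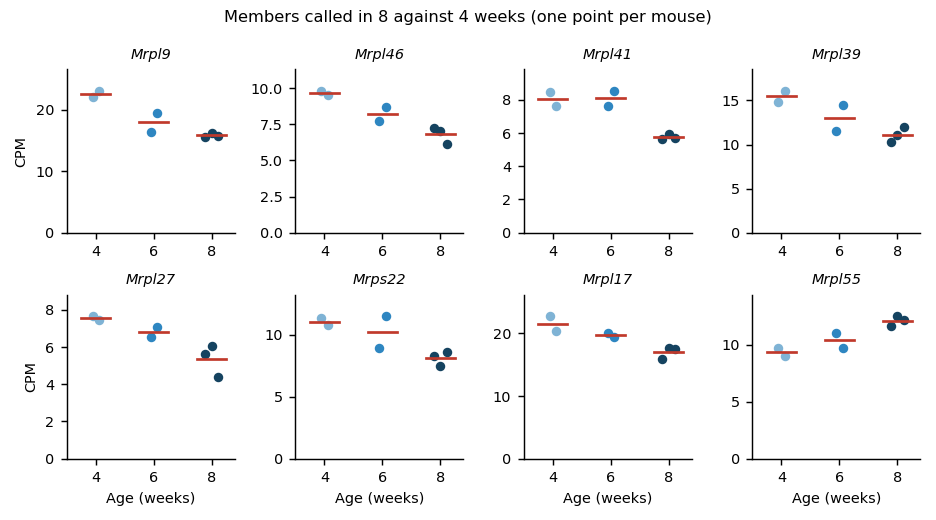
CPM of the 8 members called between 8 and 4 weeks, by age. Each point is 1 mouse, red bars are means, and axes start at 0. In each panel the 3 mice at 8 weeks lie on 1 side of both mice at 4 weeks, below them in 7 genes and above them in Mrpl55. The genes were picked by the test of the same values, so the separation is no further support.

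By class, the test called 4 of 30 large subunit proteins with bacterial homologs (3 lower, 1 higher), 3 of 20 tested large subunit proteins of the mitochondrial lineage (all lower), 0 of 16 small subunit proteins with bacterial homologs and 1 of 10 small subunit proteins of the mitochondrial lineage (lower). Their median log2 fold changes were −0.11, −0.14, −0.08 and −0.11 in the same order. The classes were not tested against each other. Mrpl12 of the stalk, known also as a partner of the mitochondrial RNA polymerase, had 12.4, 16.4 and 13.0 CPM at 8 weeks, against 17.0 and 16.8 CPM at 4 weeks (−0.28 ± 0.13, adjusted p = 0.158). Mrps36 did not pass either (−0.08 ± 0.17, adjusted p = 0.783). The log2 fold changes of the S18 copies were 0.18 ± 0.12 (Mrps18a), 0.23 ± 0.13 (Mrps18b) and −0.24 ± 0.13 (Mrps18c), with adjusted p of 0.31, 0.252 and 0.244.

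**Figure D4:**
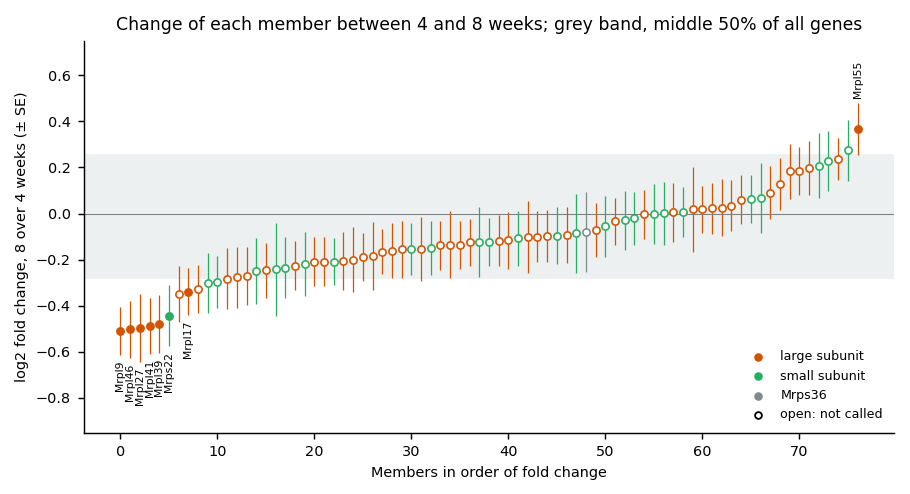
Log2 fold change of 8 over 4 weeks for the 77 tested members, in rising order, with standard errors. Filled points passed the test, orange marks the large and green the small subunit, and the grey band is the middle 50% of all genes tested. The 7 filled points on the left and Mrpl55 on the right are the calls, and 56 of 77 members lie below 0.

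Without regard to the test, 25 members (32.5%) were lower in every 8-week than in every 4-week mouse, against 25.1% of all genes, and 6 (7.79%) were higher in every 8-week mouse, against 23.9% of all genes. In single libraries, 8-week replicates 1, 2 and 3 had 56, 29 and 60 members below both 4-week mice (72.7%, 37.7% and 77.9%), against 40.9%, 41.4% and 42.6% of all genes. Replicates 1 and 3 lay well above the background share, and replicate 2 slightly below it.

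The size of the shift moved with the library. Without 8-week replicate 2 the median log2 fold change was −0.20 and 9 members were called, all lower. With replicate 2 as the lone 8-week library, an alternative chosen after seeing the data, the median was 0.00. That library then has no spread of its own and is assumed to vary like the other ages, so its calls are not read here. The calls also rested on the 4-week mice. Without 4-week replicate 1, 1 member was called, and without 4-week replicate 2, 0 were called, while the genes called overall dropped to 1263 and 810. Leaving out 6-week replicate 1 or 2 left 5 calls each, and leaving out 8-week replicate 1 left 3. Mrps22 lost its call without either 8-week replicate 1 or 2, Mrpl39 without 8-week replicate 1, Mrpl17 without either 6-week mouse or 8-week replicate 1, and Mrpl27 without any of these 3 or 8-week replicate 3. Mrpl9, Mrpl41 and Mrpl46 kept theirs without any single 6- or 8-week mouse.

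The GC trend also differed between the 8-week mice. The correlation of gene deviations with GC content across genes was −0.289, 0.302 and −0.168 in 8-week replicates 1, 2 and 3. It was −0.0987 and −0.0374 at 4 weeks, and 0.223 and 0.112 at 6 weeks, so it varied between the ages too. Replicate 2 was thus nearest to 6-week replicate 1, and replicates 1 and 3 lay below all 4- and 6-week libraries. These are descriptions over genes that are not independent. The slow fiber markers, already used above to set replicate 2 apart, summed to 264, 441 and 264 CPM in 8-week replicates 1, 2 and 3. They summed to 396 and 497 CPM at 4 weeks. With a trend in transcript length and GC content removed, the median of the members was −0.08, and 10 members were called, 3 of them higher. Of the slow fiber markers, 2 of 7 were called lower at 8 than at 4 weeks, and 7 of 7 without replicate 2. Replicate 2 had been set apart partly by these same genes, so the second count adds no support.

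Markers of other cell types also differed between 8 and 4 weeks, and all markers of each list had counts. The shares over all genes were 8.95% called lower and 9.5% higher. Those of erythroid cells (4 of 4 called lower) summed to 76.4 to 81.9 CPM at 8 weeks, against 123 to 148.8 CPM at 4 weeks. Endothelial markers (3 of 4 lower) summed to 131 to 159 CPM at 8 weeks, against 184 to 205 CPM at 4 weeks. Markers of fibroblasts and fibro-adipogenic progenitors (2 of 4 lower) summed to 599 to 833 CPM at 8 weeks, against 1504 to 1574 CPM at 4 weeks. Macrophage markers (1 of 4 lower) summed to 40.1 to 59.3 CPM at 8 weeks, against 67.6 to 79.5 CPM at 4 weeks, and those of cycling cells (2 of 2 lower) to 1.85 to 2.94 CPM, against 7.70 to 15.1 CPM. Of the 4 Schwann cell markers 1 was lower, of the 4 adipocyte markers 1 was higher, and of the 3 satellite cell markers 0 passed. The part of these cell types, of fiber type, RNA quality or ribosomal RNA depletion in these differences was not tested.

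**Figure D5:**
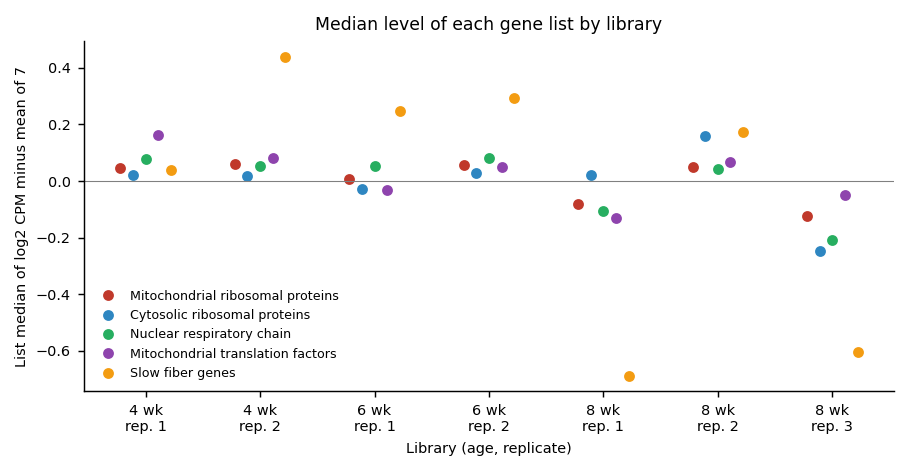
Median log2 CPM of 5 gene lists in each library, relative to the mean of the 7 libraries. Red marks the mitochondrial ribosomal proteins, and the other colours are named in the key. In 8-week replicates 1 and 3 the slow fiber genes lie at −0.69 and −0.60, and the mitochondrial ribosomal proteins at −0.08 and −0.12, whereas replicate 2 lies above 0 for all 5 lists.

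Between 8 and 6 weeks, 0 of 77 members passed the test, against 0.174% of all genes. DESeq2, limma-voom and robust edgeR also called 0, and 10 members had an unadjusted p under 0.05 by edgeR. The median log2 fold change was −0.07 in the members and 0.02 over all genes, and all 77 lay within ± 0.5. This median also moved with the library. It was −0.16 without 8-week replicate 2 (66 of 77 below 0), −0.04 without 8-week replicate 3 and −0.11 without 6-week replicate 1, with 0 calls in each. Mrpl41 came nearest, with 5.66, 5.91 and 5.68 CPM at 8 weeks, against 7.65 and 8.55 CPM at 6 weeks (−0.49 ± 0.12, adjusted p = 0.147). Mrpl51, a large subunit protein of the mitochondrial lineage, went the other way, with 41.9, 45.8 and 43.6 CPM at 8 weeks, against 35.1 and 36.4 CPM at 6 weeks (0.29 ± 0.09, adjusted p = 0.249). Mrpl24, whose bacterial homolog lies at the tunnel exit, had 15.6, 17.1 and 16.0 CPM at 8 weeks, against 19.4 and 19.2 CPM at 6 weeks (−0.25 ± 0.10, adjusted p = 0.33). These 3 genes did not pass the test. They did not overlap between the ages, which adds no support for genes taken from the smallest p. The others of the 8 smallest p, Mrpl33, Mrpl14, Mrps24, Mrps22 and Mrpl27, had log2 fold changes from −0.35 to −0.27 and adjusted p from 0.317 to 0.384.

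A test of whether the first interval (4 to 6 weeks) and the second (6 to 8 weeks) brought different changes called 0 members, against 0.0935% of all genes, with 0 by DESeq2 and 2 (Mrpl14 and Mrpl41) at an unadjusted p under 0.05. Taken as the first change minus the second, the log2 difference was 0.67 ± 0.23 for Mrpl14 (adjusted p = 0.288) and 0.50 ± 0.22 for Mrpl41 (adjusted p = 0.399). The next by p, Mrps24, Mrpl51, Mrpl24, Mrps33, Mrpl19 and Mrps18c, had adjusted p from 0.413 to 0.56. A differing pace in the 2 intervals was thus not detectable for any member.

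The members that varied most among the 8-week mice were Mrpl34, Mrps36, Mrpl27 and Mrps26. Mrpl34 had 6.88, 9.43 and 6.80 CPM and Mrps26 had 7.01, 7.95 and 5.68 CPM, so replicate 2 was the highest in both. Mrps36 had 3.86, 5.51 and 5.04 CPM, where replicate 1 was the lowest. The steadiest of the called members was Mrpl9, with an SD of 0.032 in log2 CPM, closely followed by Mrpl41 with 0.034, against 0.27 in Mrpl34. A small spread helps a gene to pass the test, and Mrpl34 was picked for its spread, so this contrast adds no support.

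Proteins of the mitochondrial ribosome with other names were also measured. Gadd45gip1, a protein of the large subunit, had 10.1, 11.6 and 9.56 CPM at 8 weeks, against 13.1 and 14.9 CPM at 4 weeks, and fell by 0.42 ± 0.12 (adjusted p = 0.0307). Of the small subunit, Dap3, a GTP-binding protein (−0.22 ± 0.10, adjusted p = 0.135), Ptcd3, an RNA-binding protein (−0.29 ± 0.10, adjusted p = 0.0525), Chchd1 (−0.13 ± 0.12, adjusted p = 0.486) and Aurkaip1 (−0.16 ± 0.12, adjusted p = 0.393) did not pass the test. Mrp63 and Ict1 are members under their current symbols, Mrpl57 and Mrpl58, and did not pass either.

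The ribosomal RNAs of the same ribosome did not pass the test in any comparison. Between 8 and 4 weeks, the log2 fold change of mt-Rnr1 of the small subunit was 0.46 ± 0.29 (adjusted p = 0.299), and that of mt-Rnr2 0.13 ± 0.41 (adjusted p = 0.858). Depletion of ribosomal RNA precedes these counts, so they are no measure of the amount of ribosome.

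Of 14 translation factors of mitochondria, 2 were lower at 8 than at 4 weeks and 0 were higher. Over all genes, 8.95% were called lower and 9.5% higher, so counts this small in short lists say little about the lists. Mtif2, the initiation factor that brings the first tRNA, fell by 0.38 ± 0.12 (adjusted p = 0.0447), and Mrrf, which recycles ribosomes after termination, fell by 0.34 ± 0.10 (adjusted p = 0.0455). Of 27 genes for assembly of the ribosome and modification of its RNA, 0 passed by edgeR, with 2 at an unadjusted p under 0.05, and their median was −0.11. Of 11 genes for mitochondrial transcription and DNA maintenance, 1 passed, Mterf2, a protein of the termination factor family, which fell by 0.47 ± 0.13 (adjusted p = 0.0282). Of 12 regulators of nuclear genes for mitochondrial proteins, 2 were higher. Yy1 had 11.4, 10.5 and 13.8 CPM at 8 weeks, against 8.55 and 7.79 CPM at 4 weeks, and rose by 0.54 ± 0.14 (adjusted p = 0.022). Tfeb, a regulator of lysosomal genes, had 22.2, 22.6 and 20.8 CPM at 8 weeks, against 14.4 and 15.0 CPM at 4 weeks, and rose by 0.57 ± 0.12 (adjusted p = 0.00825). Without 4-week replicate 1, and again without 4-week replicate 2, none of the calls of Gadd45gip1, Mtif2, Mrrf, Mterf2, Yy1 and Tfeb was made. Of these, Yy1 and Tfeb kept their calls without any single 6- or 8-week mouse. Mtif2 lost its call without either 6-week mouse and without 8-week replicate 1 or 2, Mrrf without either 6-week mouse and without 8-week replicate 1 or 3, Gadd45gip1 without 6-week replicate 1 and without 8-week replicate 1 or 3, and Mterf2 without 8-week replicate 2 or 3. By DESeq2, and again with the length and GC trend removed, neither Mtif2 nor Mrrf was called.

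Among members with a promoter row, the 41 tested with any of the 3 motifs had a median log2 fold change of −0.15 between 8 and 4 weeks and 5 calls, and the 27 without had −0.12 and 3 calls. For the YY1 motif the medians were −0.09 in 8 members with it and −0.14 in 60 without. None of the 8 with it was called, which carries little weight with so few members. These are descriptions, and the groups were not tested against each other.

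For scale, the nuclear genes of the respiratory chain, which the mitochondrial ribosome complements, had 10 of 81 called lower and 0 higher between 8 and 4 weeks, with a median of −0.15. All genes had 8.95% called lower and 9.5% higher in that comparison. Without 8-week replicate 2 there were 24 lower and 1 higher, with a median of −0.25. The ribosomal proteins of the cytosol had 1 of 82 called lower and 0 higher, with a median of −0.01, and without 8-week replicate 2 there were 7 lower and 0 higher, with a median of −0.12. That setting called 17.1% of all genes. The medians of these 2 lists in 8-week replicates 1, 2 and 3 were −0.10, 0.04 and −0.21 for the respiratory chain and 0.02, 0.16 and −0.25 for the cytosolic ribosomal proteins. Replicate 2 was the highest of the 3 mice in both lists, as in the mitochondrial ribosomal proteins. Differences between the lists were not tested.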

How the data were processed

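Gastrocnemius RNA of 7 mice (4, 6 and 8 weeks) was sequenced after depletion of ribosomal RNA. The authors trimmed the reads, aligned them with STAR to GRCm38 and counted them per gene name and strand with featureCounts, and the deposited counts were used as they stand. The submitters' processing notes name DESeq2 and mm10. Columns and files with the authors' own comparisons (fold changes and p-values), normalized values and pathway results were not used here.

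The analysis used edgeR 4.0.16 under R 4.3.3 (filterByExpr with a minimum count of 10, TMM factors, quasi-likelihood F test, 1 model over all 7 libraries with a mean for each age, 4 residual degrees of freedom) and adjusted by Benjamini-Hochberg over 14976 genes, with a threshold of 0.05. The standard error is the log2 fold change divided by the square root of F. Single-library log2 values carry a prior count of 2. TPM used exon lengths of GENCODE M21. Alternatives used DESeq2 1.42.0 and limma 3.58.1. Of the gene symbols, 26 had been turned into dates and name no gene. The code was tested on simulated data. Depth was 30836057 to 41784144 counts per library, with a biological coefficient of variation of 0.119. Replicates differed by more than counting noise, and were counted as separate mice.

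Members were chosen by symbol. The members and the gene lists were chosen with earlier results of these data known. Named were, in each comparison, the 8 members with the smallest p, the 5 highest and 5 lowest levels per length, the S18 copies, Mrpl12, Mrps36, the 4 members most variable at 8 weeks, the ribosomal RNAs, the otherwise named proteins, and up to 4 genes per other list. The promoters printed, Gm42688, and Mrpl42 and Mrpl33 as examples of length, were chosen after their values were seen.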

Additional observations from a re-analysis of the deposited data

How the results depend on the processing

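Members called between 8 and 4 weeks numbered 8. The count was 4 by the DESeq2 Wald test (all 4 also called by edgeR), 3 with no filter on low counts, 5 with only the ages compared, 5 with a replicate block, and 3 with 8-week replicate 2 as the lone 8-week library, a setting added after the data were seen in which that library is assumed to vary like the other ages. Leaving out 1 library at a time gave 0 to 9 calls. Other scalings, limma-voom, robust edgeR, the stricter filter and the length and GC trend gave 8 to 10. No member was called under any setting in the other 3 tests. The median between 8 and 4 weeks was below 0 in all 19 planned settings, from −0.30 (library totals, where the median of all genes was −0.20) to −0.03 (replicate block with the length and GC trend). The median between 6 and 4 weeks changed sign in 2 of 19 settings. Mice with the same replicate number did not deviate alike (correlations of deviations from −0.0927 to 0.0428), so the block is only an alternative. With 2 mice at each of 4 and 6 weeks, the correlations between these ages are equal by construction, so they cannot exclude a pairing. Replicate 3 exists only at 8 weeks, so with the block that library does not inform the comparison of ages. Mrpl9 kept its call in 19 of 20 settings, Mrpl41 in 18, Mrpl46 in 17, Mrpl39 in 16, Mrps22 in 14, Mrpl17 in 10, Mrpl27 in 9 and Mrpl55 in 6. The largest adjusted p was 0.081 for Mrpl9 (without 4-week replicate 2) and 0.474 for Mrpl55 (library totals). The cause of these shifts was not tested. The tested members had 58 to 2551 counts in each library, and each age rests on 2 or 3 mice.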
